A study of Mus musculus with 16 samples.

Results

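The 43 genes described here encode collagens and the proteins that surround them in the extracellular matrix. They were chosen by gene symbol from a table of 55401 gene rows, and all 43 symbols were found. The set holds 5 fibrillar collagens, 9 network, beaded-filament and fibril-associated collagens, 6 fibronectin and matricellular genes, 5 proteoglycans, 8 elastic fibre and lysyl oxidase genes, 6 basement membrane glycoproteins, and 4 enzymes or chaperones of collagen folding and heparan sulfate editing. The rule reads symbols and no measured value, but the set was put together with earlier results of these data known.

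RNA came from MC38, a mouse colon tumour line, with a WT genotype (tagged gNC in the sample titles) or a Ythdf2-KO genotype (tagged gY2). Each genotype had 3 input libraries of polyadenylated, fragmented mRNA and 3 immunoprecipitates made with an m6A antibody, and WT cells also gave 2 immunoprecipitates with an anti-YTHDF2 antibody (RIP) and 2 RIP inputs, 16 samples in all. All cells were grown in the same serum-containing medium without a further treatment in the labels, which do not state whether the KO cells were 1 clone or a pool. Nothing in the labels ties the replicates to separate cultures. The p-values below therefore speak only of the spread among these libraries, which may be technical.

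Collagens are secreted as triple helices of 3 chains whose core carries glycine at a fixed, short interval. Fibrillar types give tissues tensile strength, type IV forms the sheet of basement membranes together with laminins, nidogens and perlecan, and type VI forms beaded filaments around cells. In solid tumours this matrix is largely credited to stromal fibroblasts, and no fibroblasts are named in the labels of this culture. N6-methyladenosine (m6A) is a mark on mRNA laid down mainly in the consensus DRACH, and YTHDF2 is a reader protein that binds the mark and is best known for speeding the decay of its targets.

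Short stretches of WT m6A peaks that a RIP peak overlapped somewhere can be shown as sequence. For each role group, the WT m6A peak with the best score that lay in coding sequence, was overlapped by a RIP peak and held GGACT, the most usual form of the DRACH consensus, gave 1 window of 25 bases around the GGACT nearest the centre of the peak. The windows are written 5′ to 3′ on the transcript strand, from GENCODE M21 transcripts of the mm10 build, with GGACT in capitals. The other 3 role groups held no such peak. The motifs of Col3a1, Col6a1, Ogn and Lamc1 lay 138, 99, 7 and 247 bases from the centre of their m6A peak. RIP peaks covered 62.5%, 22.8%, 100% and 82.1% of these m6A peaks. The windows themselves were not required to lie under a RIP peak. A GGACT is a description of the letters and not a mapped methylated base.
Col3a1: tggagcccctGGACTaataggagca
Col6a1: ggggtacccaGGACTaccgggctgc
Ogn: atagaagatgGGACTttttcaaaac
Lamc1: cagccatcatGGACTataaccggga
The Col3a1 window lies at chr1:45331695-45331719 on the plus strand and the Col6a1 window at chr10:76718080-76718104 on the minus strand, both in coding exons. The Ogn window is at chr13:49618137-49618161 (plus strand) and the Lamc1 window at chr1:153221570-153221594 (minus strand), in coding exons as well. In the collagen pair the GGA of the motif is read as 1 codon, and GGA is a glycine codon. In Ogn and Lamc1 the motif sits in the other frames.

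The count table gave 45441281 to 50959555 reads per input library, and 3 counts, used as the detection floor, correspond to 0.0582 to 0.0652 CPM, counts scaled to a fixed library total. Whole-gene Ythdf2 stood at 55.6, 68.6 and 59.7 CPM in WT and 67.9, 59.8 and 61.5 CPM in the libraries labelled KO (difference 0.04 ± 0.10 SE on the log2 scale, adjusted p = 0.809 in edgeR). A whole-gene count cannot check an edit that leaves the transcript in place, so these libraries are named KO-labelled here and each direction rests on the labels. On the first principal component, which held 51.4% of the variance over all tested genes, the WT libraries lay between -39.2 and -38.6, KO-labelled replicates 2 and 3 at 64.1 and 63.2, and KO-labelled replicate 1 at -10.4. Results that rest on that library are given with and without it. Lists of markers of other cell types were summed per library. The fibroblast list (11 genes, Pdgfra the highest) was 353 to 366 CPM in WT and 384 to 387 CPM in the KO-labelled libraries, the leukocyte list (9 genes) 12.9 to 15.0 against 7.30 to 11.3 CPM and the endothelial list 1.65 to 1.999 against 2.04 to 3.002 CPM. Mural markers summed to 16.8 to 22.0 CPM in WT and 18.5 to 31.4 CPM in the KO-labelled libraries. In edgeR with all libraries, 1 of 8 tested fibroblast genes (Prrx1) and 1 of 3 tested leukocyte genes (Cd3d) fell. None in these lists rose in that fit, which called 2.99% of all genes higher and 1.54% lower. Without KO-labelled replicate 1, edgeR called 4 fibroblast genes and 1 endothelial gene higher. It then called 3 fibroblast genes, 3 leukocyte genes and 1 mural gene lower, beside 19.3% higher and 16.1% lower of all genes. DESeq2 on all libraries called 3 fibroblast genes higher, and 1 fibroblast and 2 leukocyte genes lower, beside 11.8% and 7.1% of all genes. In each of the fibroblast, leukocyte and endothelial lists 1 gene (Tcf21, Adgre1 and Emcn) had 0 counts in every library, and other genes of the lists were present, such as Pdgfra at 138 to 184 CPM, Lyz2 at 6.54 to 13.2 CPM and Cdh5 at 0.456 to 2.05 CPM. The colon epithelial markers Epcam, Krt18 and Cldn7 also had 0 counts in every library, although MC38 is a colon tumour line, and that list summed to 0.796 to 1.27 CPM. The part of these markers in the results was not tested. In bulk RNA, fewer cells that express a gene and less RNA per cell cannot be told apart.

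In WT cells the matrix genes ranged from below the detection floor upward. Levels between genes were compared per kilobase of exon, taking the union of all annotated exons of a gene. The order of genes therefore depends on that annotation, which gives Col1a2 12.4 kb and Col1a1 6.56 kb. Fibronectin (Fn1), which links collagens to integrins, stood at 214 CPM per kb, Serpinh1, the collagen chaperone HSP47, at 205, Col3a1 at 202 and Col6a1 at 192. In each WT library Fn1 stood above Col3a1 and Col3a1 above Col6a1, while the place of Serpinh1 changed from library to library. After a gap came Sparc, a collagen-binding glycoprotein, at 65.8, Col4a1 at 64.7, Col6a2 at 51.7, Col6a3 at 50.8 and Col16a1 at 47.5 CPM per kb, whose WT libraries overlap from each gene to the next. The chains of type I collagen, the main collagen of bone and tendon, were far lower, with Col1a1 at 4.23 and Col1a2 at 4.07 CPM per kb. In unscaled CPM, 16 members were above 100 in every library and 8 were below 1 in every library: Postn, Tnc, Eln, Lox, Loxl1, Nid1, Lama4 and Sulf1. Of the 43 genes, 39 had enough counts to be tested. Eln (elastin), Loxl1, Lama4 and Sulf1 did not, and reached at most 0.061, 0.214, 0.0652 and 0.152 CPM.

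**Figure D1:**
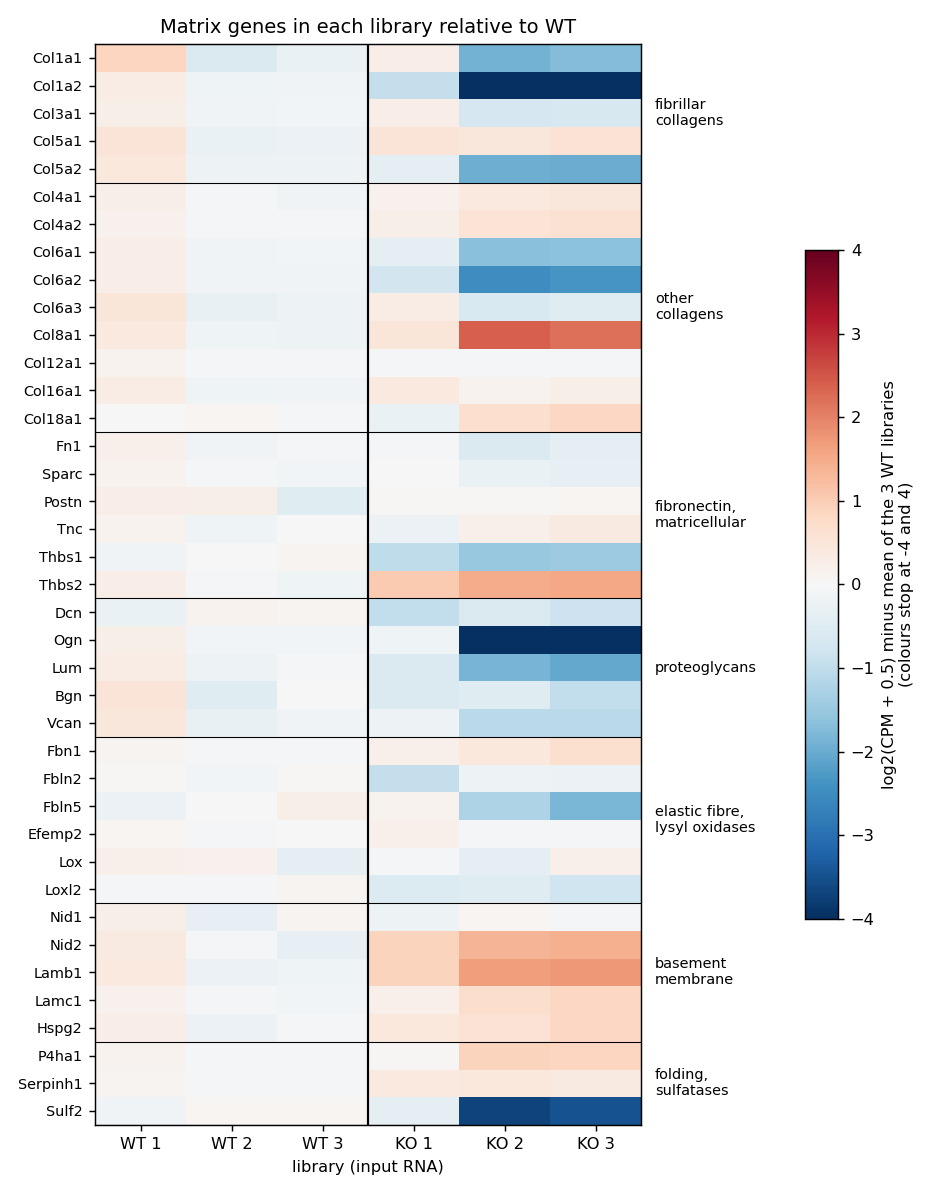
Level of each tested matrix gene (rows, grouped by role) in the 6 input libraries (columns), as log2 CPM minus the mean of the 3 WT libraries, with colours that stop at -4 and 4. KO-labelled replicates 2 and 3 resemble each other, and in 16 of 39 genes KO-labelled replicate 1 lies between them and WT.

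Between the KO-labelled and WT libraries, 4 members rose and 2 fell in edgeR's quasi-likelihood test with Benjamini-Hochberg adjustment over all 18969 genes tested, at an adjusted p below 0.05. The genes that rose were Thbs2, Lamb1, Nid2 and Serpinh1, and those that fell were Thbs1 and Dcn. Over all tested genes 2.99% were called higher and 1.54% lower, so 6 of 39 members stand beside 4.54% in either direction. The other 33 tested members did not pass, although 22 of the 39 (56.4%) had an unadjusted p below 0.05, beside 29.5% of all tested genes. In 22 members (9 higher, 13 lower, 56.4%) the values of the groups did not overlap, against 33.8% of all tested genes. The fold change was above 0 in 17 members and below 0 in 22, with a median of -0.24 on the log2 scale beside -0.01 for all genes. That median depended on WT replicate 1, the highest of the WT libraries in 32 of 39 members (82.1%) and in 13 of 14 collagens, against 40.0% of all tested genes. Without it the median was 0.03, and edgeR called 3 members higher and 1 lower, beside 0.271% and 0.205% of all genes.

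How many members passed changed with single libraries. Leaving out any 1 of WT replicates 2 and 3 or KO-labelled replicates 2 and 3 gave 0 higher and 0 lower in edgeR. Over all genes these fits called 0, 3, 1 and 1 genes higher and 0, 2, 3 and 0 lower, so hardly any gene passed in them. The value of KO-labelled replicate 1 lay between WT and the other KO-labelled libraries in 16 of 39 members, within the WT range in 11, within the range of the other KO-labelled libraries in 5 and beyond all of them in 7. Without KO-labelled replicate 1, edgeR called 12 members higher and 16 lower, beside 19.3% and 16.1% of all genes (35.4% in either direction), and the 6 members called with all libraries were among them. The groups then did not overlap in 33 members, beside 62.3% of all genes. With DESeq2 on all 6 libraries the counts were 10 higher and 5 lower, beside 11.8% and 7.1% of all genes. With limma and a weight for each library they were 14 and 16, beside 46.5% of all genes called in either direction. The median SE of a member's log2 fold change was 0.25.

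**Figure D2:**
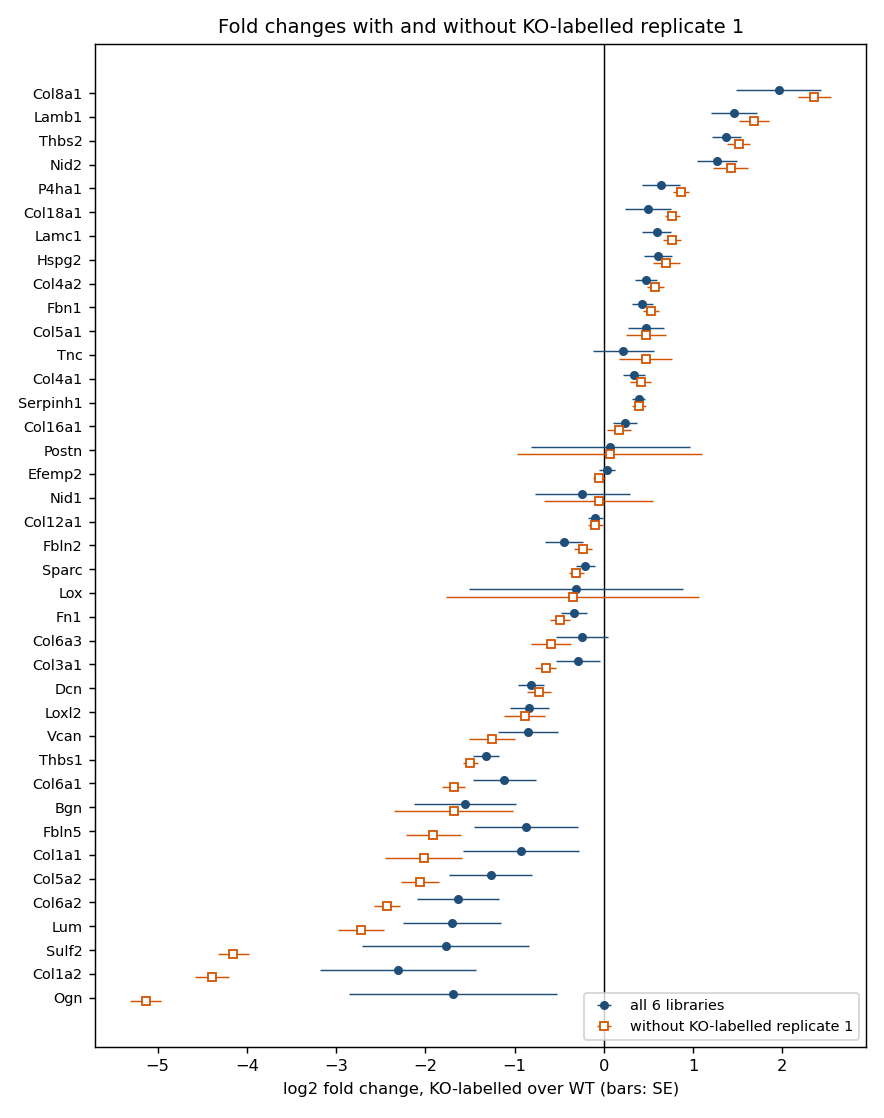
Log2 fold change (KO-labelled over WT) of each tested matrix gene with its SE, from all 6 libraries and from the fit without KO-labelled replicate 1. Genes are ordered by the fold change without that library. Thbs2, Lamb1, Nid2 and Serpinh1 are the called genes above 0 and Thbs1 and Dcn those below 0, and Ogn, Col1a2 and Sulf2 move to -5.13, -4.39 and -4.15 when the library is left out.

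The thrombospondins moved in opposite directions. These matricellular glycoproteins bind cell-surface receptors and matrix without building fibres, and both are known as inhibitors of angiogenesis. Thbs1 measured 123, 137 and 147 CPM in WT, against 67.2, 46.9 and 49.4 CPM in the KO-labelled libraries. Thbs2 measured 161, 128 and 119 CPM in WT and 282, 380 and 395 CPM in the KO-labelled libraries. Neither gene's groups overlapped, and in both KO-labelled replicate 1 was the KO-labelled library nearest to WT. Thbs1 fell from 136 ± 11.9 to 54.5 ± 11.1 CPM (SD, n = 3 each), a log2 change of -1.32 ± 0.15 SE (edgeR adjusted p = 0.0180). Thbs2 rose from 136 ± 22.1 to 352 ± 61.2 CPM, a log2 change of 1.37 ± 0.16 SE (edgeR adjusted p = 0.0200). Both calls held in edgeR when replicate 1 of WT or replicate 1 of the KO-labelled group was left out. They missed 0.05 in each of the other 4 fits that left out a library, with an edgeR adjusted p of up to 0.141 for Thbs1 and 0.152 for Thbs2. Those 4 fits called at most 3 genes in each direction over all genes, so a miss there is not particular to these genes.

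**Figure D3:**
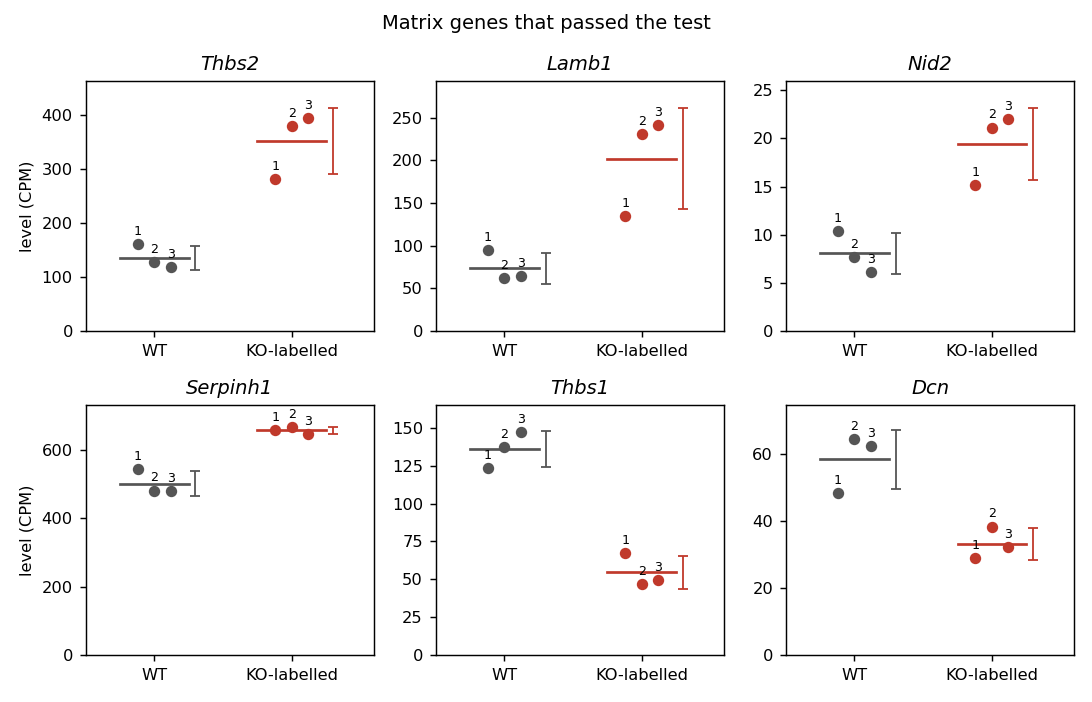
Level in CPM of the 6 called matrix genes in each input library, with the replicate number beside each point and the group mean ± SD (n = 3). The groups do not overlap in any panel, and KO-labelled replicate 1 is the KO-labelled library nearest to WT for Thbs1, Thbs2, Lamb1 and Nid2.

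No other member of the fibronectin and matricellular group passed the test. Fn1 measured 2844, 2255 and 2415 CPM in WT and 2392, 1672 and 1883 CPM in the KO-labelled libraries (log2 change -0.34 ± 0.14 SE, edgeR adjusted p = 0.171), and replicate 1 lay within the WT range. Without that library Fn1 was lower (log2 change -0.49, edgeR adjusted p = 0.0120). Sparc measured 273, 242 and 232 CPM in WT and 245, 205 and 197 CPM in the KO-labelled libraries, with overlapping groups (edgeR adjusted p = 0.242, and 0.0282 without replicate 1). Postn and Tnc, which encode the matricellular proteins periostin and tenascin-C, stayed below 0.9 CPM in all 6 libraries.

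None of the 5 fibrillar collagen chains was called in edgeR with all libraries, while 3 had an unadjusted p below 0.05 and DESeq2 called 0. Over all tested genes 29.5% had such an unadjusted p, and DESeq2 called 18.9%. Col1a2, one of the chains of type I collagen, measured 62.0, 44.1 and 45.5 CPM in WT and 25.8, 2.34 and 2.47 CPM in the KO-labelled libraries. The groups did not overlap, and replicates 2 and 3 averaged 21 times below the WT mean while replicate 1 was not. Its log2 change was -2.31 ± 0.88 SE (edgeR adjusted p = 0.136) with all libraries and -4.39 ± 0.20 SE (edgeR adjusted p = 4.1e-05) without replicate 1. Its partner chain Col1a1 measured 46.2, 16.5 and 20.6 CPM in WT and 30.1, 6.48 and 7.22 CPM in the KO-labelled libraries, so the groups overlapped through replicate 1. The mean of replicates 2 and 3 was 4.06 times below WT for Col1a1 and 4.17 times below for Col5a2. Col5a2, a type V chain that helps to start fibrils, measured 38.5, 25.3 and 24.8 CPM in WT and 22.5, 7.17 and 7.0 CPM in the KO-labelled libraries.

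The abundant fibrillar chains behaved otherwise. Col3a1, the chain of the type III fibrils of soft tissue, measured 2314, 1796 and 1838 CPM in WT and 2348, 1245 and 1276 CPM in the KO-labelled libraries, with replicate 1 above every WT library. Col5a1 measured 494, 287 and 297 CPM in WT and 501, 475 and 523 CPM in the KO-labelled libraries, where WT replicate 1 was the library apart. Neither gene passed in edgeR (adjusted p = 0.474 for Col3a1 and 0.169 for Col5a1). Without WT replicate 1, 1 of the 5 fibrillar genes was called higher in edgeR, beside 0.271% of all genes. Without KO-labelled replicate 1, 4 of 5 were called lower in edgeR: Col1a2, Col1a1 (log2 change -2.02, adjusted p = 0.0101), Col3a1 (-0.65, adjusted p = 0.00471) and Col5a2 (-2.06, adjusted p = 0.000528). That fit called 19.3% of all genes higher and 16.1% lower. With all libraries the edgeR adjusted p was 0.379 for Col1a1 and 0.126 for Col5a2.

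**Figure D4:**
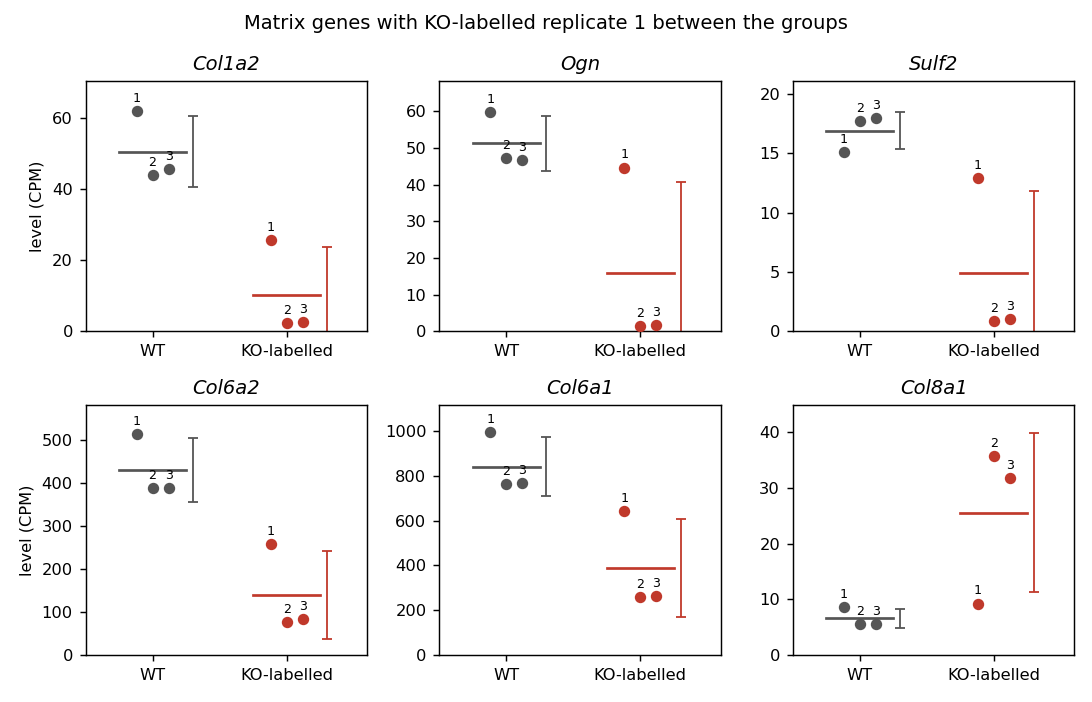
Level in CPM of 6 uncalled matrix genes in which KO-labelled replicate 1 lies between WT and the other KO-labelled libraries, with the replicate number at each point and the group mean ± SD (n = 3, bars stop at 0). In Ogn replicate 1 is at 44.7 CPM and replicates 2 and 3 are at 1.34 and 1.58 CPM.

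Among the network, beaded-filament and fibril-associated collagens, edgeR called 0 of 9 with all libraries. An unadjusted p below 0.05 was found in 5 and a DESeq2 call in 3, beside 29.5% and 18.9% of all genes. The type VI chains assemble as beaded filaments. Col6a1 measured 994, 764 and 767 CPM in WT and 642, 259 and 265 CPM in the KO-labelled libraries. Col6a2 measured 515, 388 and 388 CPM in WT and 257, 76.5 and 83.0 CPM in the KO-labelled libraries. In both genes every KO-labelled library was below every WT library, and replicate 1 was the nearest to WT. The edgeR adjusted p was 0.0939 for Col6a1 (log2 change -1.11 ± 0.35 SE) and 0.0757 for Col6a2 (-1.63 ± 0.46 SE). Without replicate 1 the log2 changes were -1.68 and -2.43 (edgeR adjusted p = 0.000193 and 8.5e-05). The third chain, Col6a3, overlapped between groups, at 828, 479 and 515 CPM in WT and 727, 382 and 425 CPM in the KO-labelled libraries (log2 change -0.25 ± 0.29 SE, edgeR adjusted p = 0.604), and its fold was 0.03 without WT replicate 1.

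The type IV chains of basement membranes, which share a bidirectional promoter in the genome, gave higher values in KO-labelled replicates 2 and 3. Col4a2 measured 258, 216 and 215 CPM in WT and 268, 333 and 352 CPM in the KO-labelled libraries (log2 change 0.47 ± 0.12 SE, edgeR adjusted p = 0.0683). Col4a1 measured 563, 452 and 433 CPM in WT and 543, 633 and 652 CPM in the KO-labelled libraries (0.34 ± 0.12 SE, edgeR adjusted p = 0.121), with replicate 1 inside the WT range. Without that library the log2 changes were 0.58 for Col4a2 and 0.41 for Col4a1 (edgeR adjusted p = 0.00332 and 0.0279). Col8a1, a short-chain collagen of vessel walls and the eye, had the largest positive fold of all tested members, at 8.55, 5.63 and 5.55 CPM in WT and 9.23, 35.7 and 31.8 CPM in the KO-labelled libraries. Its replicate 1 stood only just above the highest WT library, and the log2 change was 1.96 ± 0.48 SE (edgeR adjusted p = 0.0575), and 2.36 without replicate 1 (edgeR adjusted p = 0.000227). Col18a1, the parent of endostatin, measured 20.0, 21.4 and 19.7 CPM in WT and 17.0, 32.9 and 36.3 CPM in the KO-labelled libraries (edgeR adjusted p = 0.239, and 0.000736 without replicate 1, at a log2 change of 0.77). Col12a1 and Col16a1, which associate with fibrils, differed by -0.10 and 0.24 on the log2 scale and did not pass (edgeR adjusted p = 0.464 and 0.281).

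Decorin (Dcn), a small leucine-rich proteoglycan that binds collagen fibrils and TGF-beta, fell. It measured 48.4, 64.7 and 62.4 CPM in WT and 29.0, 38.4 and 32.2 CPM in the KO-labelled libraries, so the groups did not overlap and replicate 1 was the lowest library. The mean went from 58.5 ± 8.82 to 33.2 ± 4.77 CPM (SD, n = 3 each), a log2 change of -0.82 ± 0.15 SE (edgeR adjusted p = 0.0355). The call held in 1 of the 6 fits that left out a library, the one without KO-labelled replicate 1, and the largest edgeR adjusted p was 0.178. Fits without replicate 2 or 3 of either group called at most 3 genes in each direction over all genes.

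Ogn, the small proteoglycan osteoglycin, showed the widest split among KO-labelled libraries. It measured 59.8, 47.2 and 46.8 CPM in WT and 44.7, 1.34 and 1.58 CPM in the KO-labelled libraries, and replicates 2 and 3 averaged 35.2 times below WT. The log2 change was -1.69 ± 1.16 SE with all libraries (edgeR adjusted p = 0.369) and -5.13 ± 0.17 SE without replicate 1 (edgeR adjusted p = 2.1e-05). Lumican (Lum), a fibril-spacing relative of decorin, was at 4.40, 3.02 and 3.30 CPM in WT and 2.20, 0.610 and 0.468 CPM in the KO-labelled libraries. Versican (Vcan), a large hyaluronan-binding proteoglycan, was at 7.98, 4.56 and 5.16 CPM in WT and 4.88, 2.48 and 2.45 CPM in the KO-labelled libraries. Lum groups did not overlap and Vcan groups did, and neither passed (edgeR adjusted p = 0.099 and 0.150). Without replicate 1 the log2 changes were -2.72 for Lum and -1.26 for Vcan (edgeR adjusted p = 0.0004 and 0.00836). Biglycan (Bgn) was near or below 1 CPM in every library. All 5 proteoglycans had a fold below 0, with a median log2 change of -1.56. That median is the value of Bgn itself, which had 5 to 56 counts per library. Without WT replicate 1 the median was -1.06.

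In the elastic fibre and lysyl oxidase group, 6 of 8 genes were tested and edgeR called 0. An unadjusted p below 0.05 was found in 2 and a DESeq2 call in 2, beside 29.5% and 18.9% of all genes. Fibrillin-1 (Fbn1), the core of microfibrils, measured 42.4, 38.0 and 37.0 CPM in WT and 45.4, 52.4 and 60.5 CPM in the KO-labelled libraries, without overlap (log2 change 0.43 ± 0.12 SE, edgeR adjusted p = 0.0738). Loxl2, which crosslinks collagen IV, was low, at 1.69, 1.63 and 1.92 CPM in WT and 1.05, 1.10 and 0.788 CPM in the KO-labelled libraries (-0.84 ± 0.22 SE, edgeR adjusted p = 0.0674). Fbln5, a tether of elastic fibres, was at 3.05, 3.65 and 4.40 CPM in WT and 4.08, 1.28 and 0.681 CPM in the KO-labelled libraries, with replicate 1 inside the WT range (edgeR adjusted p = 0.351). Without that library the log2 changes were 0.53 for Fbn1, -0.89 for Loxl2 and -1.91 for Fbln5 (edgeR adjusted p = 0.00395, 0.0217 and 0.00286). Fbln2, a fibulin of elastic tissue and basement membranes, measured 18.8, 16.9 and 18.9 CPM in WT and 9.07, 15.7 and 15.2 CPM in the KO-labelled libraries, without overlap and with replicate 1 the lowest (log2 change -0.45 ± 0.21 SE, edgeR adjusted p = 0.201). Efemp2 (fibulin-4) stayed between 155 and 188 CPM in all 6 libraries.

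Of the 5 tested basement membrane glycoprotein genes, 2 rose and 0 fell in edgeR, beside 2.99% and 1.54% of all genes. Lamb1, a laminin beta chain, measured 94.7, 62.0 and 64.1 CPM in WT and 135, 230 and 241 CPM in the KO-labelled libraries. Nid2, a nidogen that bridges laminin and collagen IV, measured 10.3, 7.67 and 6.19 CPM in WT and 15.1, 21.1 and 22.0 CPM in the KO-labelled libraries. Neither gene's groups overlapped, and replicate 1 was the lowest KO-labelled library in both. Lamb1 rose from 73.6 ± 18.3 to 202 ± 58.7 CPM (SD, n = 3 each), a log2 change of 1.46 ± 0.25 SE (edgeR adjusted p = 0.0344). Nid2 rose from 8.07 ± 2.11 to 19.4 ± 3.74 CPM, a log2 change of 1.27 ± 0.23 SE (edgeR adjusted p = 0.0353). Both calls held in 1 of the 6 fits that left out a library, the one without KO-labelled replicate 1. Over all genes, the fits without replicate 2 or 3 of either group called at most 3 genes in each direction. Nid2 shares 437 exon bases with Rtraf on the opposite strand, which measured 155 to 184 CPM, and with no strand setting stated for the counts the reads of the pair could be mixed.

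Lamc1, the laminin gamma chain that pairs with Lamb1, measured 325, 269 and 268 CPM in WT and 327, 468 and 504 CPM in the KO-labelled libraries. Perlecan (Hspg2), the heparan sulfate proteoglycan of basement membranes, measured 230, 159 and 185 CPM in WT and 256, 284 and 337 CPM in the KO-labelled libraries. Every KO-labelled library of both genes was above every WT library, by only a small margin in replicate 1 of Lamc1. The log2 changes were 0.59 ± 0.17 SE for Lamc1 and 0.61 ± 0.16 SE for Hspg2 (edgeR adjusted p = 0.0755 and 0.0634). Without replicate 1, 4 of the 5 tested basement membrane genes were called higher in edgeR, among them Lamc1 (log2 change 0.76, adjusted p = 0.00131) and Hspg2 (0.70, adjusted p = 0.0102). Over all genes, 19.3% were called higher and 16.1% lower in that fit. Nid1 was below 0.5 CPM in every library.

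Serpinh1, which holds procollagen in the endoplasmic reticulum while it folds, rose by a small but tight margin. It measured 543, 481 and 481 CPM in WT and 659, 668 and 646 CPM in the KO-labelled libraries, and here replicate 1 lay within the range of the other KO-labelled libraries. The mean went from 502 ± 35.8 to 658 ± 10.7 CPM (SD, n = 3 each), a log2 change of 0.39 ± 0.07 SE (edgeR adjusted p = 0.0377). The call held when replicate 1 of either group was left out and missed 0.05 in the other 4 fits, with an edgeR adjusted p of up to 0.187. At most 3 of all genes were called in each direction in those 4 fits. P4ha1, the prolyl hydroxylase subunit needed for stable triple helices, measured 171, 144 and 147 CPM in WT and 159, 284 and 277 CPM in the KO-labelled libraries, with replicate 1 inside the WT range (log2 change 0.64 ± 0.21 SE, edgeR adjusted p = 0.104). Without replicate 1 its log2 change was 0.87 (edgeR adjusted p = 0.000489). Sulf2, an extracellular enzyme that removes sulfate from heparan sulfate, measured 15.1, 17.7 and 18 CPM in WT and 12.9, 0.833 and 1.06 CPM in the KO-labelled libraries. Its replicates 2 and 3 averaged 17.8 times below WT, and the log2 change was -1.77 ± 0.93 SE with all libraries (edgeR adjusted p = 0.246) and -4.15 without replicate 1 (edgeR adjusted p = 3.4e-05). Sulf2 shares 154 exon bases with Ncoa3 on the opposite strand, which measured 59.3 to 90.0 CPM.

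Other genes of matrix assembly and adhesion were counted from lists by function, put together with earlier results of these data known. Of 24 tested genes for collagen folding and processing, 5 rose and 0 fell: P3h1, Fkbp14, Bmp1, Pcolce2 and Adamts14. Pcolce2, an enhancer of procollagen cleavage, rose most of these, from 18.2 ± 3.18 to 54.9 ± 19.5 CPM (edgeR adjusted p = 0.0352). Among 22 matrix receptors, 6 rose and 0 fell: the integrin chains Itga1, Itga5, Itga6 and Itga7, the syndecan Sdc3 and the dystroglycan gene Dag1. Itga6, part of laminin-binding integrins, went from 52.3 ± 1.45 to 112 ± 21.1 CPM (edgeR adjusted p = 0.0209). Of 12 microfibril genes, 2 rose (Emilin2, Ltbp1) and 1 fell, Adamtsl2. It was already low in WT, with a mean of 0.358 CPM, and had 0 counts in every KO-labelled library. Against a floor of 3 counts per library it was at least 5.87-fold lower. In the further lists, Ccn4 rose and Hapln1 fell among 24 proteoglycan and matricellular genes and Col27a1 rose among 18 other collagens. edgeR called 0 of 11 further basement membrane genes and 0 of 9 TGF-beta ligands and receptors, with 6 and 7 at an unadjusted p below 0.05 and 4 and 4 called by DESeq2. Of all tested genes, 29.5% had an unadjusted p below 0.05 in edgeR, and DESeq2 called 18.9%. In all, 15 of 120 tested genes rose and 2 fell in edgeR, beside 2.99% and 1.54% of all genes. Without KO-labelled replicate 1 these counts were 42 and 29 of 125 tested genes, beside 19.3% and 16.1% of all genes. In DESeq2 they were 33 and 12 of 120, beside 11.8% and 7.1% of all genes. limma with library weights gave 50 and 32 of 120, beside 24.4% and 22.1% of all genes. Each fit that left out 1 of WT replicates 2 and 3 or KO-labelled replicates 2 and 3 gave 0 and 0. Those fits called at most 3 of all genes in each direction.

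Deposited peak lists gave a second readout of the same genes. The lists held 19236 WT m6A peaks, 17428 KO m6A peaks and 23372 RIP peaks, each 1 list per group with no value per replicate, so differences between lists have no replicate check. Members held 77, 52 and 128 of these peaks, in 30, 21 and 27 of the 43 genes. A WT m6A peak was listed in 76.9% of the 39 tested members, a KO m6A peak in 53.8% and a RIP peak in 69.2%, beside 48.7%, 45% and 34.3% of all tested genes. Peaks are found more easily in abundant transcripts, so the shares were also taken among genes at 10 CPM or more in WT. There, 26 of 28 members (92.9%) had a WT m6A peak beside 74.9% of all such genes, 19 of 28 (67.9%) a KO m6A peak beside 71.5%, and 23 of 28 (82.1%) a RIP peak beside 52.2%. The members were still more abundant than that background, with a median of 159 against 48.3 CPM in WT, and the part of abundance in these shares was not tested further.

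**Figure D5:**
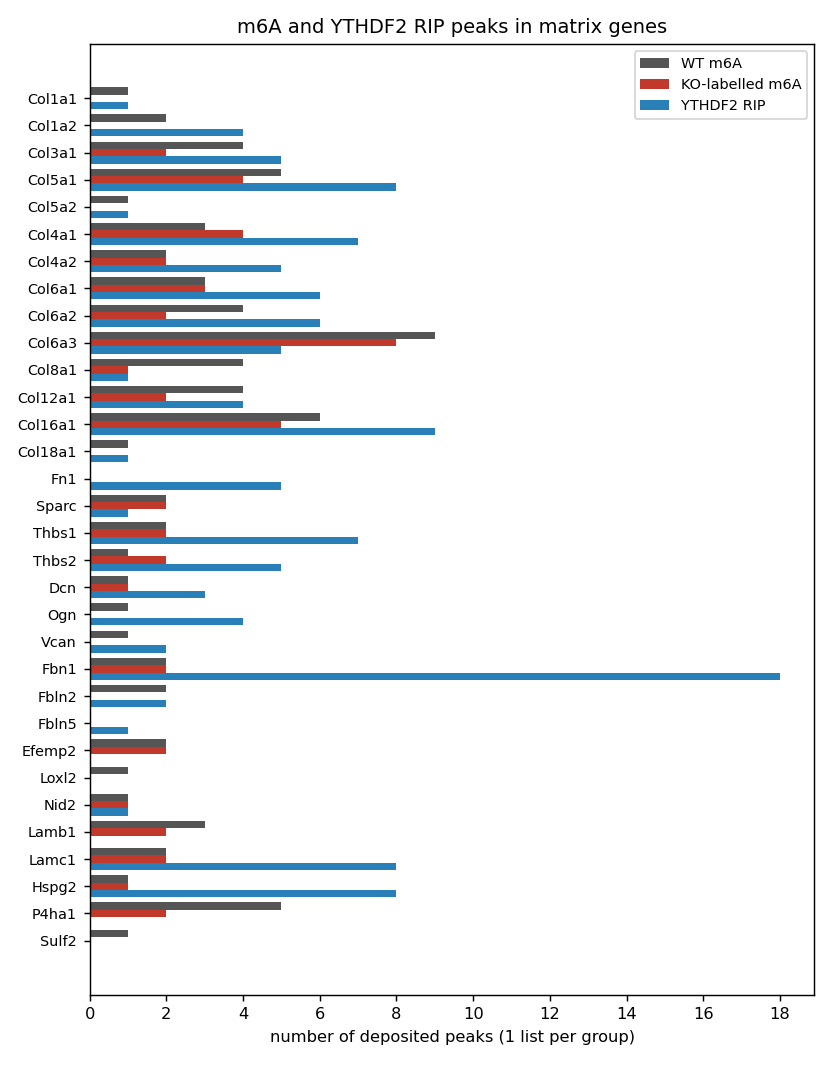
Number of deposited peaks in each matrix gene in the WT m6A, KO m6A and RIP lists, genes grouped by role. Fbn1 has the most RIP peaks (18) and Col6a3 the most WT m6A peaks (9), and Fn1 has 5 RIP peaks without an m6A peak.

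Peak placement differed among the members. Of 69 WT m6A peak centres that could be placed on a transcript, 50 lay in coding sequence (72.5%, beside 61.4% of all peaks), 19 in the 3′ UTR and 0 in the 5′ UTR. Col6a3 carried the most m6A peaks, 9 in WT and 8 in KO, and its 5 RIP peaks covered 10679 of its 11963 exon bases. The RIP peaks of Hspg2 covered 12529 of 14307 exon bases, and those of Fn1 covered 9113 of 11685 although Fn1 had no m6A peak in either list. Serpinh1, at 502 CPM in WT, had no peak in any of the lists. Lamb1 and P4ha1 had m6A peaks and no RIP peak.

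The genes called in the RNA comparison differed in their peaks too. RIP peaks numbered 7 in Thbs1, 5 in Thbs2, 3 in Dcn and 1 in Nid2, with 0 in Lamb1 and Serpinh1. Thbs1 had 2 WT m6A peaks, both overlapped by KO peaks. The single WT peak of Thbs2, in coding sequence, was wholly covered by a KO peak, and KO had a further peak in its 3′ UTR. Dcn had a 3′ UTR m6A peak in both lists, whereas the WT peak of Nid2 was in coding sequence and its KO peak in the 3′ UTR, without overlap. Nid2 shares exon bases with Rtraf on the opposite strand, and whether the KO peak lies in the shared stretch was not examined. Of the 25 members with both a WT m6A and a RIP peak, 2 rose and 2 fell in edgeR with all libraries. Over all tested genes 2.99% rose and 1.54% fell in that fit. The median log2 change of the 25 members was -0.21. Without KO-labelled replicate 1, edgeR called 9 of the 25 higher and 11 lower, beside 19.3% and 16.1% of all genes. Calls among all genes with both peaks were not counted.

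A total of 9 members had a WT m6A peak and no KO m6A peak, and 0 had the reverse, beside 5.64% and 1.93% of all tested genes. That is 9 of the 30 members with a WT peak (30%), beside 11.6% of all tested genes with one. They were Col1a1, Col1a2, Col5a2, Col18a1, Ogn, Vcan, Fbln2, Loxl2 and Sulf2, with 11 WT peaks among them. The RNA of these genes had a median of 20.4 CPM in WT and 12.2 CPM in the KO-labelled inputs, and 8 of the 9 had a fold below 0, all but Col18a1. Over all tested genes with a WT peak and no KO peak, the medians were 10.7 and 8.65 CPM and 66.5% had a fold below 0. The part of RNA level in the absent KO peaks was not tested. In the other 21 members with WT peaks, 49 of 66 WT peaks (74.2%) were overlapped by a KO peak. Over all members, 49 of 77 WT peaks (63.6%) were overlapped by a KO peak and 45 (58.4%) by a RIP peak, beside 80.3% and 48.3% of all WT peaks.

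The GGACT motif, searched on the transcript strand only, was counted around the peak centres and in whole coding sequences. It was present within 50 bases of the centre in 11 of 68 member peaks (16.2%) and in 16.8% of all WT m6A peaks. In coding sequence as a whole, the 14 collagens held 123 GGACT motifs in 70.6 kb, or 1.74 per kb, beside 1.18 per kb in the other tested members and 1.18 in all tested genes. In the collagens 79 of the 123 motifs (64.2%) were in the frame that reads GGA as a glycine codon, as in the Col3a1 and Col6a1 windows printed above. That share was 25.2% in the other members and 25.4% in all tested genes. A WT m6A peak covered 18.7% of the collagen motifs, 3.60% of those in other members and 16.7% of those in all tested genes.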

How the data were processed

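The deposited gene table holds whole-number read counts for the 6 m6A-seq input libraries, and every count column was matched to a sample (0 were not). HISAT2, HOMER, ChIPseeker and the mm10 build are listed per the submitters' processing notes without roles. The tools that counted reads and called peaks, the strandedness and the gene models were not given in the sources used. The deposited peak lists carry a score per peak that the file headers do not define, read here from its values as the authors' p-value, one list per group. Signal in single immunoprecipitates was not analysed here.

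Counts were filtered with filterByExpr, scaled by TMM and tested with edgeR 4.0.16 (quasi-likelihood, R 4.3.3) over all 18969 genes, with Benjamini-Hochberg adjustment at 0.05. limma 3.58.1 with library weights and DESeq2 1.42.0 were alternatives, as were DESeq2 size factors, no filter, a replicate block and leaving out each library. Leaving out replicate 1 of both groups was added after seeing the data. The test was run on simulated data with known changes. CPM used TMM-scaled totals, and per-kb levels the exon union of GENCODE M21, which matched 55141 of 55401 rows. Peaks were joined by Ensembl ID, and an overlap needed 1 exonic base. Tables were joined in Python 3.11.15 with pandas 2.3.3. All tested members are given by values or ranges, and in other lists those past the threshold are named. Col1a2, Ogn, Sulf2, Col6a1, Col6a2 and Col8a1 were plotted after their values were seen. Members and gene lists were chosen with earlier results of these data known.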

Additional observations from a re-analysis of the deposited data

How the results depend on the processing

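The counts of called genes depended on the libraries and the tool. DESeq2 size factors in edgeR kept the 4 members higher and 2 lower. Without the filter on low counts edgeR called 1 higher and 1 lower among members, 1 and 0 in the other matrix lists, and 70 and 41 among all genes. DESeq2 called 10 and 5, 33 and 12, and 2244 and 1346. limma with library weights, which gave KO-labelled replicate 1 a weight of 0.184 and WT replicate 1 a weight of 0.526, called 14 and 16, 50 and 32, and 4629 and 4196. Without replicate 1 of both groups, chosen after seeing the data, edgeR called 14 and 17, 49 and 29, and 4758 and 4126, and 35 members did not overlap. Leaving out 1 library at a time gave 0 to 12 members higher and 0 to 16 lower, 0 to 42 and 0 to 29 in the other lists, 0 to 3782 and 0 to 3144 among all genes, and 22 to 33 members without overlap. The upper ends are without KO-labelled replicate 1. The members' median log2 change ranged from -0.3427 to 0.0293, positive only without WT replicate 1. The causes were not tested.

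No label says that a replicate number pairs samples, so the main fit had no block. Samples with the same number deviated together only weakly from their group means (correlations 0.0494, 0.115 and 0.0502), which does not settle whether they are pairs. In these deviations each of the 6 libraries did correlate best with its own number among the libraries of the other genotype. With the replicate block edgeR called 0 members higher and 1 lower (Dcn, adjusted p = 0.0478), 1 and 0 in the other lists, and 45 and 26 among all genes. Members at an unadjusted p below 0.05 in edgeR numbered 30 of 39 with the block and 22 without it. Over all genes these numbers were 5585 and 5596.

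Direction reversed in genes near 0, with the value under library weights, then without both replicates 1, then the range over fits without 1 library: Efemp2 (-0.0185, -0.0182, -0.0524 to 0.0916), Lox (0.1179, 0.12, -1.206 to 0.2628) and Nid1 (0.1989, 0.2722, -0.6107 to 0.0893). Over the fits without 1 library Col6a3 ranged from -0.5877 to 0.0293 and Postn from -0.5293 to 0.5085. A stricter peak score left the numbers of members with a peak within 1.5 times. It kept 99.7% of all WT m6A, 99.4% of all KO m6A and 95.6% of all RIP peaks, so these numbers could hardly change. A larger covered share also left the numbers of WT m6A peaks overlapped by KO or RIP peaks within 1.5 times. Of 128 RIP peaks of members, however, 39 were overlapped by a WT m6A peak and 18 under the larger share. Genes below 1 CPM have too few counts for a small change to be seen.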

Other observations

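Collagen chains that form 1 molecule did not keep a fixed ratio across the libraries. Per kb of exon, Col1a1 over Col1a2 was 1.41, 0.709 and 0.858 in WT and 2.21, 5.25 and 5.53 in the KO-labelled libraries. Col5a1 over Col5a2 was 14.5, 12.9 and 13.5 in WT and 25.1, 74.9 and 84.3 in the KO-labelled libraries. Col6a1 over Col6a2 was 3.67, 3.75 and 3.76 in WT and 4.74, 6.44 and 6.07 in the KO-labelled libraries. In these 3 pairs every KO-labelled library was above every WT library, and KO-labelled replicate 1 was the nearest to WT. Col4a1 over Col4a2, by contrast, stayed between 1.64 and 1.94 in all 6 libraries. The height of each ratio depends on the annotated exon lengths, which are the same for every library. The ratios were examined after the levels were seen and have no test.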
